A study of Mus musculus with 5 samples.

Results

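Immune cells of mouse dermis were compared between early and late telogen, the resting phase of the hair cycle. The libraries at postnatal day 45 (P45) and P50 stood for early telogen, and those at P63 and P80 for late telogen, with the library as the replicate and 2 libraries a side. All came from undepilated C57BL/6 mice and held live CD45+ cells sorted from digested dermis. They were profiled by 10x Genomics 3' single-cell RNA sequencing, which counts RNA molecules by unique molecular identifiers (UMIs). The labels carry no genotype, transgene or drug, and do not say how many animals were pooled in a library. Another library, P50_Depil5D, came from depilated skin and was used only as an outside reference. Of the 4721 barcodes in the 4 libraries, 1827 cells were used, from 6223 barcodes in all 5. These cells had at least 200 detected genes, at most 10% mitochondrial UMIs, a barcode listed in no other library, at least 1 UMI of Ptprc (the gene of CD45), and fewer than 10 UMIs of the keratinocyte keratins Krt5 and Krt14 together. Genes are named only where both late libraries lay above, or both below, both early ones. Krt5, Krt14 and Ptprc chose the cells, so their own levels are description only.

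Hair follicles in telogen pass through an early stage that resists growth signals and a late stage that responds to them. Dermal leukocytes around the follicle, among them macrophages, dendritic cells, gamma-delta and regulatory T cells, are known to send signals to follicle stem cells, and macrophage-derived oncostatin M acting through JAK-STAT signalling is the subject of this series. Macrophages and dendritic cells take up and present antigen through class II molecules. Skin T cells and innate lymphoid cells carry receptors for costimulation and tissue residence.

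The libraries were uneven. In order of age, the libraries held 1063, 538, 160 and 66 cells used, with 3181853, 1113536, 272770 and 86697 UMIs in all. Levels are in CPM, a gene's UMIs per 1000000 UMIs of the cells summed, and 1 UMI was worth 0.314, 0.898, 3.67 and 11.5 CPM. Median UMIs per cell were 2575, 1464, 1521.5 and 1173. Barcodes listed in another library made up 0.557%, 13.5%, 33.1% and 49.9% of the libraries in the same order, and were left out. UMIs of genes with Gm-number names, which include many pseudogenes, made up 1.01% and 0.653% of UMIs in the early libraries and 2.08% and 3.42% in the late ones. The part of this difference in the results below was not tested, and with 1 library per age it cannot be told apart from age. The Y-linked gene Ddx3y lay between 62.3 and 80.7 CPM in all 4 libraries, with overlapping sides.

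The first question was whether the sides differed in makeup. Cells with at least 2 UMIs of the Cd3, NK and related lymphocyte genes and under 0.5% of UMIs from class II genes, called Cd3 or NK gene cells, made up 20.9%, 58.0%, 51.9% and 40.9% of the cells, by age. Cells with at least 0.5% class II UMIs and under 2 lymphocyte UMIs, called class II high cells, made up 50.9%, 30.5%, 36.3% and 43.9%. The early libraries were the extremes for both kinds of cell, and the late libraries lay between them. The late mean was 6.95 percentage points higher for Cd3 or NK gene cells, with an exact two-sided permutation p of 1, and the smallest p that 2 libraries a side allow is 0.333. For class II high cells the difference was -0.594 points, also with an exact permutation p of 1. With shared barcodes kept, the differences were 0.562 and 1.11 points, so that the first shrank and the second changed sign. Cells carrying both gene sets were 25.6% at P45 and between 5% and 9.09% in the 3 others. Doublets were not removed.

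**Figure D1:**
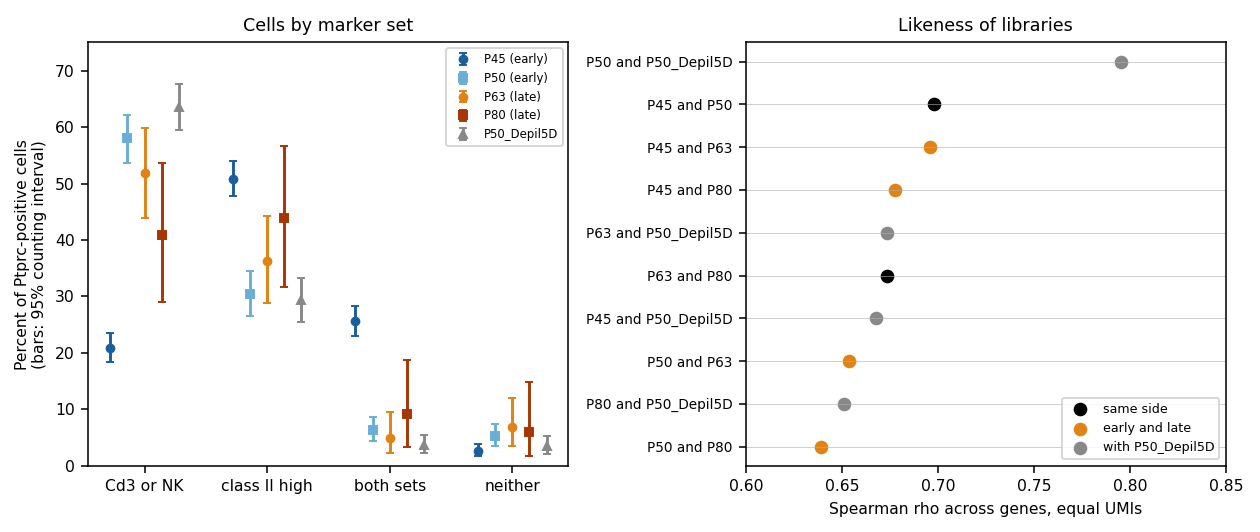
Left, percent of Ptprc-positive cells by marker set in each library, with exact 95% counting intervals; the share of Cd3 or NK gene cells runs from 20.9% at P45 to 58.0% at P50, and the late libraries lie between. Right, Spearman rho between libraries across 2130 genes after thinning each to 86697 UMIs; the pair P63 and P80 (0.673) lies among the pairs of 1 early and 1 late library (0.639 to 0.696), and the pair P45 and P50 (0.698) just above them.

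Whole profiles were about as alike across sides as within them. With every library thinned to 86697 UMIs, Spearman's rho across 2130 genes, which are not independent replicates, was 0.698 between P45 and P50 and 0.673 between P63 and P80. The 4 pairs of an early with a late library lay between 0.639 and 0.696. P50 and P50_Depil5D were the most alike of all pairs, at 0.795.

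In the test across genes, no gene passed an adjusted p of 0.05 between early and late libraries. The test was edgeR's quasi-likelihood fit on UMIs summed per library, over the 2130 genes with a mean of at least 50 CPM, and its smallest adjusted p was 0.428. At an unadjusted p under 0.05, 110 genes were higher in late telogen (5.16% of those tested) and 35 lower (1.64%). By position alone, 462 genes (21.7%) had both late libraries above both early ones and 376 (17.7%) both below, 838 (39.3%) in all. If the 4 libraries were interchangeable, a share of 0.333 of genes would be placed so in either direction, here and in the 2 kinds of cell below. The nearest late and early libraries were at least 2-fold apart for 27 of the higher genes (1.27%) and 6 of the lower (0.282%). The 95% counting intervals of the libraries were apart for 37 higher (1.74%) and 18 lower genes (0.845%). DESeq2 called 6 genes at adjusted p under 0.05, namely Icos, Rora, Gclm, Cap1 and Lgals7 higher and Ccl17 lower, with adjusted p from 0.00842 to 0.0171. The filter on the mean over 4 libraries let 161 of the 462 higher genes pass with an early mean under 50 CPM, and 54 of the 376 lower ones with a late mean under it. Of the 15 leading genes in each direction, these were 8 and 6. Counts of list members below, also within the 2 kinds of cell, can include such genes and are description only. Because no gene passed the edgeR test, levels below are values and not called changes. Their p-values measure only the spread between these libraries, which differ in age as well. Values given as 4 numbers are CPM at P45, P50, P63 and P80 in that order, and a fold is a log2 ratio of late over early with its standard error.

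**Figure D2:**
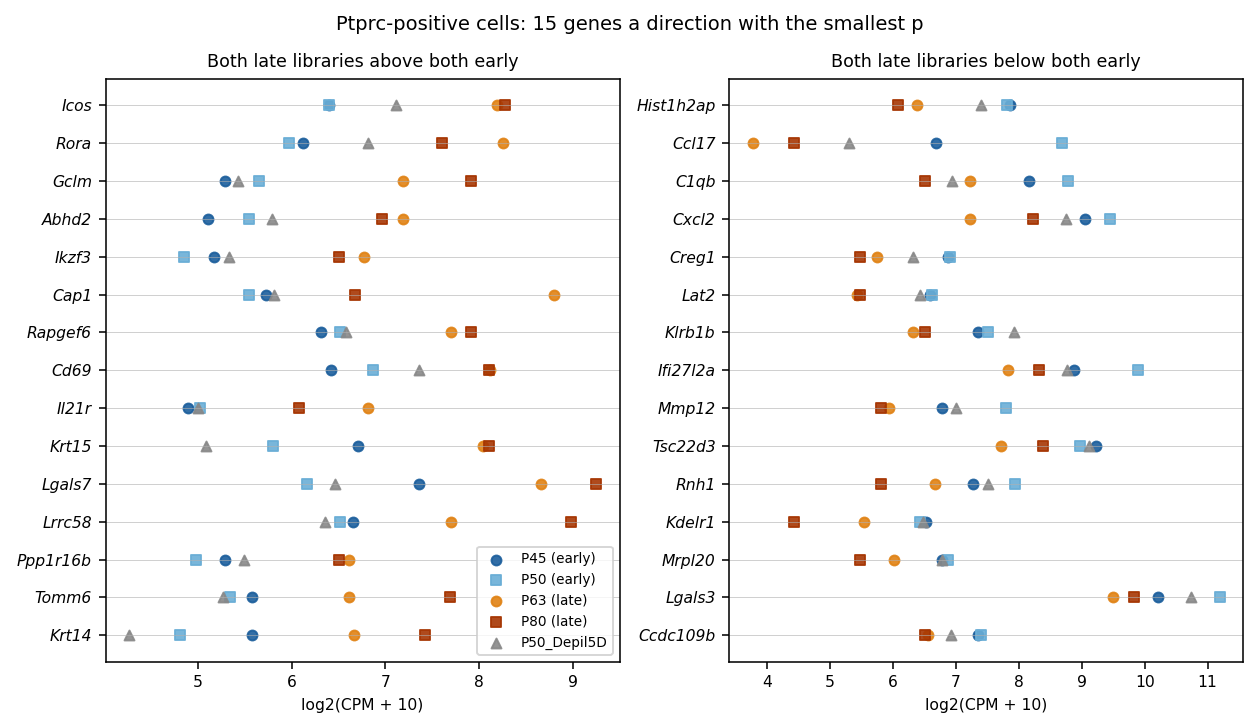
Levels in Ptprc-positive cells of the 15 genes in each direction with the smallest p among those whose sides did not overlap, as log2 of CPM plus 10, 1 point per library. Orange and brown points (P63, P80) lie right of blue ones (P45, P50) in the left panel and left of them in the right panel, as the choice of genes requires. P50_Depil5D (grey) lies nearer the early libraries for all 15 genes on the left and for 11 of 15 on the right, which is description only.

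Of the 15 leading higher genes, Icos, Rora, Cd69, Ikzf3 and Il21r are known from lymphocytes. The list of adhesion and residency genes had 1 of 12 tested members higher and none lower, against 21.7% and 17.7% over all genes. Icos, a costimulatory receptor of T cells and innate lymphoid cells (mm10, chromosome 1, 60977927 to 61000320), stood at 74.2 and 74.5 CPM in the early libraries and 282 and 299.9 in the late ones. Both late libraries lay well above both early ones, whose levels were nearly equal, and the fold was 1.96 ± 0.31 (edgeR adjusted p 0.428). Icos UMIs were in 12.1%, 8.18%, 23.8% and 19.7% of cells, by age. With cells thinned to 1000 UMIs, which left out 95 cells at P50, 4 at P63 and 27 at P80, these shares were 6.96%, 4.74%, 20.5% and 12.8%. In class II high cells, which should lack Icos, it was found in 8 of 541, 2 of 164, 0 of 58 and 0 of 29 cells. At P80 all Icos values rest on 26 UMIs, 69.2% of them in 5 cells.

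Rora, a nuclear receptor needed for type 2 innate lymphoid cells and Th17 cells (chromosome 9, 68653786 to 69388246), stood at 59.7, 53.0, 297 and 185 in order of age, a fold of 2.14 ± 0.36. Cd69, which holds lymphocytes in tissue and marks recent activation (chromosome 6, 129267325 to 129275436), stood at 75.4, 107, 268 and 265. The late pair of Cd69 was close together and well above P50, the higher early library. Ikzf3, the lymphoid transcription factor Aiolos, stood at 26.1, 18.9, 99.0 and 80.7. Il21r, the receptor for interleukin-21, stood at 19.8, 22.5, 103 and 57.7, but with 5 UMIs at P80. Ppp1r16b, a regulatory subunit of protein phosphatase 1, stood at 29.2, 21.6, 88.0 and 80.7.

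Marker lists of lymphocyte kinds gave few members on either side, where 21.7% of all genes were higher and 17.7% lower. Of the 12 T cell markers, all 12 were tested and 1 was higher in both late libraries, Bcl11b, a transcription factor of T cell identity, at 39.3, 53.9, 106 and 69.2. Its early mean was under 50 CPM, so it passed the filter only through the late libraries. The other 11 overlapped, and the summed T cell markers were 1870, 7326, 4121 and 4083, so that the late libraries lay between the early ones. Of 4 tested type 2 innate lymphoid markers, Rora, Gata3 and Il1rl1 were higher and none lower. Gata3 and Il1rl1 had early means under 50 CPM and passed the filter only through the late libraries, so this count is not read further. The summed markers of this list were 232, 814, 634 and 692, so that the late libraries lay between the early ones. In Cd3 or NK gene cells 1 of 4 tested was higher and 3 overlapped. Gata3, the transcription factor of type 2 cells, stood at 47.8, 50.3, 136 and 80.7, and Il1rl1, the interleukin-33 receptor, at 38.0, 19.8, 58.7 and 92.3. Of 6 regulatory T cell markers tested, Icos and Ikzf2 (Helios) were higher and none lower, with Ikzf2 at 168, 162, 359 and 219. Of 5 gamma-delta T17 markers, Maf (147, 83.5, 319 and 161) and Il7r (88.3, 101, 121 and 127) were higher. The sides of Il7r lay close, and its fold turned to -0.081 when shared barcodes were kept.

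Among 10 tested genes of the TNF ligand and receptor families, 3 were higher, none was lower and 7 overlapped, near the 21.7% higher over all genes. The 3 were Ltb, which forms lymphotoxin and organizes lymphoid tissue (94.9, 136, 227 and 277), the costimulatory receptor Cd27 (86.7, 63.8, 179.6 and 92.3) and Tnf (73.2, 99.7, 114 and 149.9). Among 11 CC chemokines, 5 were higher, 2 lower and 4 overlapped, against 21.7% higher and 17.7% lower over all genes. Ccl5, a chemokine of T and NK cells, stood at 227, 223, 887 and 381, and Ccl4 at 292, 152, 367 and 299.9. Of 6 cytotoxic granule genes tested, 1 was higher, 2 lower and 3 overlapped, against the same shares over all genes. Gzmb, a granzyme, stood at 13.2, 36.8, 95.3 and 69.2. Its early mean was under 50 CPM, so it passed the filter only through the late libraries. Gzmc, another granzyme, was on the opposite side at 943, 928, 499 and 0, where 0 UMIs at P80 allow a level of up to 34.6.

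Genes outside the lymphocyte lists were also among the 15 leading higher genes. Gclm, the modifier subunit of the enzyme that starts glutathione synthesis (chromosome 3, 122245557 to 122270732), stood at 29.2, 40.4, 136 and 231, a fold of 2.34 ± 0.41. Abhd2, a serine hydrolase, stood at 24.5, 36.8, 136 and 115. Rapgef6, an exchange factor for Rap proteins, stood at 69.5, 81.7, 198 and 231. Lrrc58, a protein with leucine-rich repeats, stood at 90.5, 81.7, 198 and 496, and Tomm6, part of the mitochondrial import pore, at 37.7, 30.5, 88.0 and 196. Cap1, an actin-binding protein, was carried by 1 library: its levels were 43.1, 36.8, 436 and 92.3. Cap1 UMIs were in 67 of 160 cells at P63 and in 5 of 66 at P80. Without P63 the log2 fold of Cap1 was 1.20, against 2.83 with it. Kdm6b, a histone demethylase, was not among the 15 but was among the leading genes of both cell kinds below, and stood at 239, 163, 439.9 and 508.

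Some keratinocyte genes had both late libraries above both early ones, in cells chosen for low Krt5 and Krt14. Of 18 keratinocyte markers, 8 passed the filter of 50 CPM. Krt5 and Krt14 among them chose the cells, and Sfn and Perp passed only through the late libraries, so no count over the 8 is read here. Lgals7, the epithelial galectin-7, stood at 154, 62, 396 and 599.8. Krt15, a keratin of follicle stem cells, stood at 94.3, 45.8, 253 and 265, and Sfn, an epithelial 14-3-3 protein, at 41.5, 16.2, 91.7 and 254. Krt14, which the choice of cells limited, stood at 37.7, 18.0, 91.7 and 161. Without Krt5 and Krt14, the other 16 markers summed to 626 and 394 in the early libraries and 1136.5 and 1638 in the late ones. Lgals7 UMIs were in 23.9%, 4.83%, 27.5% and 48.5% of cells, or 9.97%, 3.16%, 16% and 25.6% after thinning, and 1 cell held 58 of the 108 UMIs at P63. Over all 18 markers, with no filter on low values, the median fold was 0.69. Endothelial markers were also higher in both late libraries, at sums of 24.8, 16.2, 176 and 69.2, with no member abundant enough to test. Fibroblast markers overlapped, at sums of 1315, 159, 612 and 57.7, and neural crest markers summed to 9.74, 2.69, 0 and 0. Erythroid markers summed to 575 at P45 and 3.59 to 115 elsewhere, and neutrophil markers to 421 at P45 and 18.9 to 69.2 elsewhere, both overlapping. The part of these cells' RNA in the other results was not tested.

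Several of the 15 leading lower genes are known from macrophages or dendritic cells, but the dendritic cell lists were mostly not on this side. Of type 1 dendritic cell markers 0 of 5 tested were lower (median fold 0.18) and of type 2 markers 2 of 6 (median -0.23), with 0 of 1 for mature dendritic cells, 0 of 2 for Langerhans cells and no member of these lists higher. By comparison, 17.7% of all genes were lower and 21.7% higher. Ccl17, a dendritic cell chemokine that draws T cells (chromosome 8, 94810453 to 94812036), stood at 93.3 and 401 in the early libraries and 3.67 and 11.5 in the late ones, with 1 UMI in each late library. Ccl17 is counted in the type 2 list and passed the filter only through the early libraries. It was concentrated in few cells. At P50, 1 cell held 219 of its 446 UMIs and 5 cells held 96.0%, and at P45 5 cells held 81.8%. Ccl17 UMIs were in 2.45%, 1.86%, 0.625% and 1.52% of cells, so the libraries were closer by cells than by UMIs. Cxcl2, which draws neutrophils (chromosome 5, 90903871 to 90905938), stood at 519.8, 692, 139 and 288, a fold of -1.59 ± 0.42. Its UMIs were in 24.1%, 16%, 7.50% and 9.09% of cells, and in 16%, 12.6%, 6.41% and 5.13% after thinning to 1000 UMIs. At P80 1 cell held 17 of its 25 UMIs. In Cd3 or NK gene cells, described below, the unthinned shares were 6.76%, 4.17%, 1.20% and 3.70%.

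Complement genes lay on the lower side for 4 of 5 tested members, against 17.7% over all genes, with a median fold of -0.76. The 3 chains of C1q, which macrophages make and which start the classical complement pathway, lie side by side on chromosome 4 (136880129 to 136898803). C1qb stood at 276, 431, 139 and 80.7, C1qa at 241, 322, 176 and 69.2, and C1qc at 186, 255, 161 and 80.7. In each chain P80 was lowest and P50 highest, and P63 lay close to P45 for C1qc. Cfp, properdin of the alternative pathway, stood at 136, 146, 106 and 104, with a fold that turned to 0.058 when shared barcodes were kept. Of 12 macrophage markers tested, 5 were lower and none higher, against 17.7% and 21.7% over all genes. These were the same 3 C1q chains, the antibody receptor Fcgr3 (144, 117, 77.0 and 69.2) and Adgre1, which encodes F4/80 (105, 93.4, 36.7 and 80.7). In summed form the 16 macrophage markers were 2412 and 2228 in the early libraries and 1697 and 1384 in the late ones. In sums over cells, fewer macrophages and less RNA of these genes per macrophage cannot be told apart.

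Genes of the lysosome and of antigen presentation followed. Of 13 cathepsins and cystatins tested, 7 were lower and none higher, against 17.7% and 21.7% over all genes, with a median fold of -0.71. Ctss, which trims the invariant chain for class II loading, stood at 844, 898, 561 and 473, and Ctsh at 280.3, 242, 139 and 161. Cst3, a cystatin abundant in dendritic cells, stood at 5028, 3351, 2236 and 2884. Of 9 class II presentation genes, 5 were lower and none higher, against the same shares, with a median fold of -0.49. The summed list of 12 overlapped between sides, at 62764, 45770, 39359 and 49194. H2-DMa and H2-DMb1, the pair that loads peptide on class II, stood at 1280.4, 892, 634 and 542 and at 892, 609, 407 and 554. Ifi30, a lysosomal thiol reductase, stood at 293, 274, 187 and 161. Class I presentation genes had 5 of 14 higher and 1 lower, against 21.7% and 17.7% over all genes. Their sums overlapped between sides, at 6586, 9445, 7578 and 6805. The peptide transporter subunit Tap1 stood at 45.9, 41.3, 58.7 and 104, and Tap2 at 37.4, 35.0, 84.3 and 46.1. Both subunits had early means under 50 CPM and passed the filter only through the late libraries.

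The list of the lipid-associated state that depends on the receptor TREM2 had 5 of 11 tested members lower and none higher, with a median fold of -0.66. The shares over all genes were 17.7% lower and 21.7% higher. Lgals3, galectin-3, stood at 1173, 2334, 715 and 899.7. Lpl, lipoprotein lipase, stood at 293, 308, 209 and 80.7, Plin2, a lipid droplet coat protein, at 93.3, 166, 66.0 and 69.2, and Ctsd, cathepsin D, at 145, 285, 121 and 92.3. Mmp12, the macrophage elastase, stood at 99.9, 212, 51.3 and 46.1, with 4 UMIs at P80. Its late mean was under 50 CPM, so it passed the filter only through the early libraries, and the count of this list is not read further. Among the leading lower genes were also Creg1, a lysosomal glycoprotein (107, 110.5, 44.0 and 34.6), the adaptor Lat2 (86.7, 88.9, 33.0 and 34.6) and the glucocorticoid-induced gene Tsc22d3 (591, 490.3, 202 and 323). The interferon-inducible gene Ifi27l2a stood at 461, 938, 216 and 311. Monocyte genes split. Ly6c2 (49.7, 26, 66.0 and 92.3) and the chemokine receptor Ccr2 (206, 104, 249 and 254) were higher, and Plac8 (149, 80.8, 58.7 and 69.2) and Ms4a6c (339, 196, 179.6 and 138) lower. Ly6c2 had an early mean under 50 CPM and passed the filter only through the late libraries.

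Of 9 cell cycle genes tested, 5 were lower and none higher, with a median fold of -0.74, and of 11 histone and chromatin genes 5 were lower and none higher. H2afz and Hmgb2 are counted in both lists. Over all genes 17.7% were lower and 21.7% higher. Stmn1, a microtubule regulator, stood at 123, 558, 99.0 and 46.1, so that P50 was far above P45. Ube2c, which acts in mitotic exit, stood at 36.5, 157, 0 and 34.6, on 0 and 3 UMIs in the late libraries, and 0 UMIs at P63 allow a level of up to 11. Its late mean was under 50 CPM, so it passed the filter only through the early libraries. The cell cycle count is therefore not read further. Hist1h2ap, a replication histone in a cluster of near-identical copies whose reads the counting may have split, stood at 222, 214, 73.3 and 57.7. The late values of Hist1h2ap rest on 20 and 5 UMIs.

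**Figure D3:**
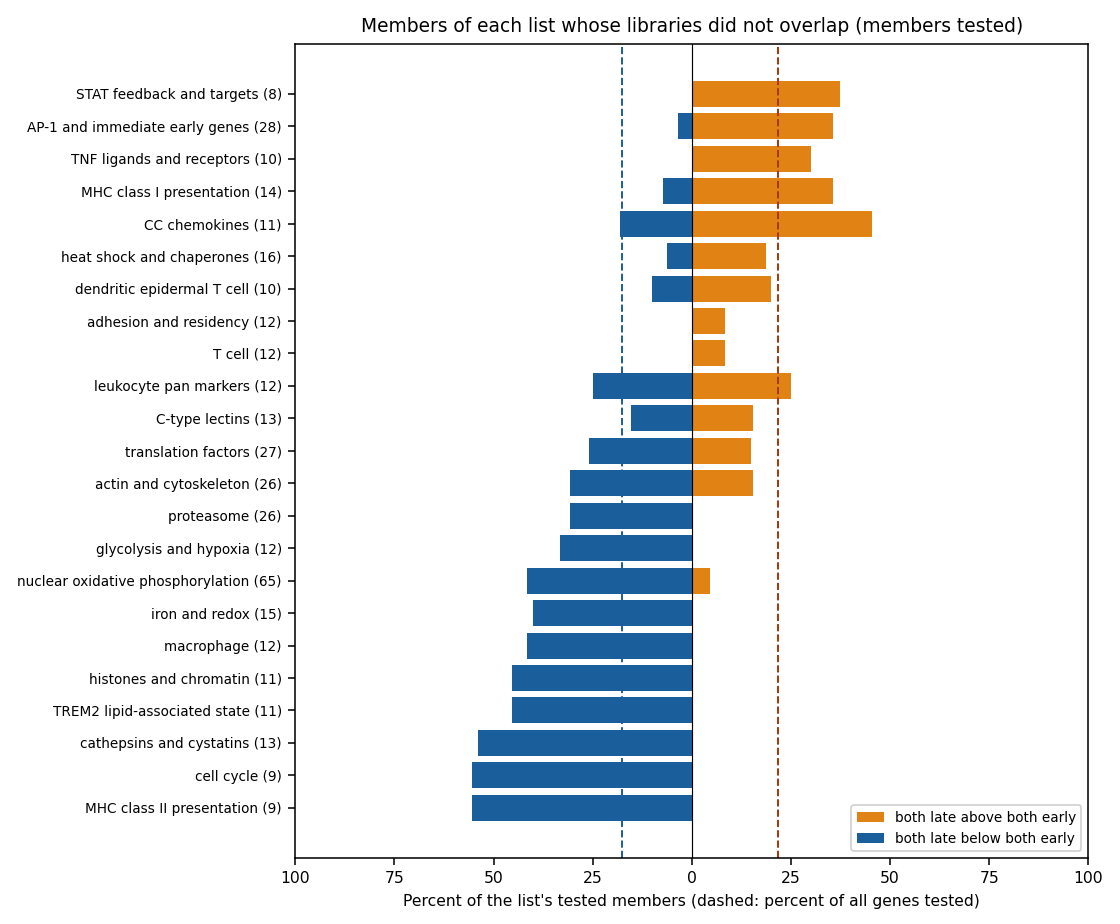
Percent of each list's tested members with both late libraries above (orange, right) or below (blue, left) both early ones, for lists with at least 8 tested members (number in brackets), leaving out the keratinocyte list, which holds Krt5 and Krt14. Dashed lines give the same over all 2130 genes, 21.7% and 17.7%. Class II presentation, cell cycle and cathepsin lists have over 50% of their members on the left, and no list has over 50% on the right. The cell cycle share counts Ube2c, which passed the filter only through the early libraries.

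Energy and protein turnover genes had more members lower than higher, by small folds, and most overlapped. Of 65 nuclear-encoded oxidative phosphorylation genes tested, 27 were lower, 3 higher and 35 overlapped, against 17.7% and 21.7% over all genes, with a median fold of -0.24. Uqcr10 of complex III stood at 381, 446, 249 and 277, and the complex I subunits Ndufb8 and Ndufs5 at 198, 216, 128 and 127 and at 154, 177, 103 and 104. Of 26 proteasome genes, 8 were lower, none higher and 18 overlapped (median -0.23), against 17.7% lower over all genes, with Psma1 at 90.5, 104, 55.0 and 57.7. Of 15 iron and redox genes, 6 were lower, none higher and 9 overlapped, against the same 17.7% lower over all genes. Fth1, ferritin heavy chain, which has processed pseudogenes, stood at 4119.6, 7414, 3032 and 3518, and the peroxiredoxin Prdx1 at 371, 712, 308 and 288.

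These groups also differed in transcript length, as did the sides as a whole. The longest annotated transcript had a median of 3728 bases among the 462 higher genes, 1983 among the 376 lower ones and 2546 among those that overlapped. With genes in 5 bins by length, 10.6% of the shortest bin (183 to 1362 bases) were higher and 29.3% lower, and in the longest bin 38.5% were higher and 7.28% lower. Spearman's rho of fold with length was 0.342 across 2128 genes, which share libraries and are not independent. Between libraries of the same side it was -0.142 (P50 over P45) and -0.0981 (P80 over P63). Tested oxidative phosphorylation genes had a median length of 983 bases, proteasome genes 1528, cathepsins and cystatins 1564, complement genes 1203 and class II presentation genes 1410, against 2680 over all genes tested. The nuclear RNA Malat1 stood at 31579, 30680.0, 41449 and 49148, and Neat1 at 264, 222, 356 and 288. The part of transcript length and of nuclear RNA in these group counts was not tested.

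**Figure D4:**
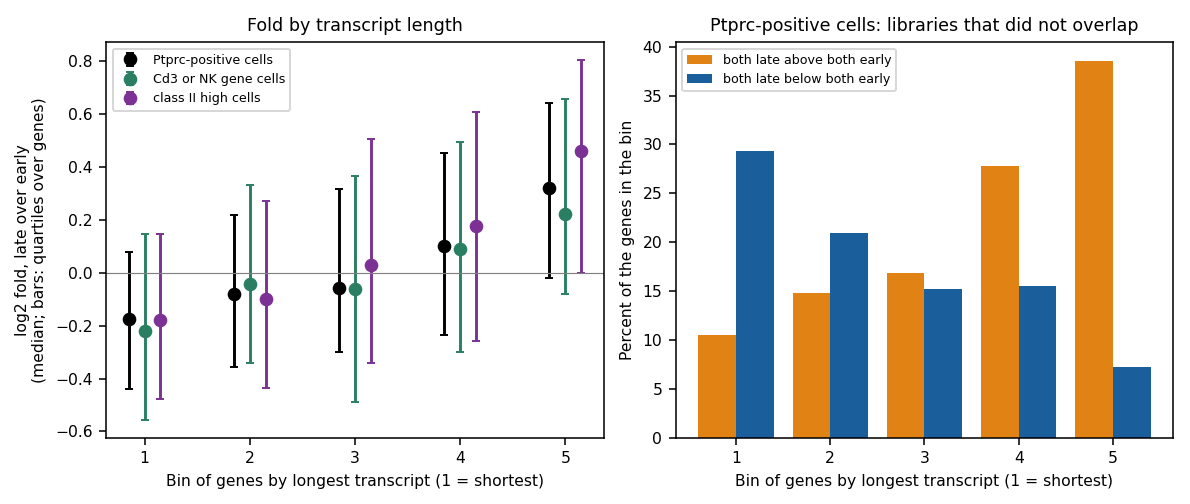
Left, median log2 fold of late over early with quartiles over genes, for 5 bins of genes in order of transcript length, for all Ptprc-positive cells and both cell kinds; the median runs from -0.17 in the shortest bin to 0.32 in the longest in Ptprc-positive cells. Right, percent of genes in each bin with both late libraries above (orange) or below (blue) both early ones.

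Of 28 AP-1 and immediate early genes tested, 10 were higher, 1 lower and 17 overlapped, with a median fold of 0.42, against 21.7% higher over all genes. Junb stood at 1889.8, 1741, 2768 and 2907, Ier2 at 274, 251, 363 and 634, and Btg2, which restrains division, at 576, 510.1, 792 and 865. The exception was Ier3, at 158, 175, 84.3 and 115. Of 8 STAT feedback genes and targets, 3 were higher, none lower and 5 overlapped, with a median fold of 0.14, which with so few members is not set apart from the 21.7% over all genes. Pim1, a kinase induced by cytokines through STAT5, stood at 684, 457, 917 and 1349.5. Cish and Socs3, which damp JAK-STAT signals, stood at 28.0, 52.1, 69.7 and 57.7 and at 155, 150.0, 176 and 161. Cish had an early mean under 50 CPM and passed the filter only through the late libraries. The sides of Socs3 were nearly equal, and its fold turned to -0.041 in cells with 0 or 1 UMI of Krt5 and Krt14. Jak1, 1 of 3 JAK-STAT components tested, stood at 97.1, 98.8, 147 and 104. Of the 15 genes of the oncostatin M and interleukin-6 family, 1 was abundant enough to test, and its sides overlapped. The chaperone Dnajb1 stood at 153, 218, 326 and 404. Heat shock genes had 3 of 16 higher and 1 lower, against 21.7% and 17.7% over all genes. Actins went in opposite directions, with Actb at 10073, 10036, 21725 and 14695 and Actg1 at 3136, 3546, 2662 and 1799.

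Cd3 or NK gene cells and class II high cells were then compared separately, with 222, 312, 83 and 27 cells of the first kind and 541, 164, 58 and 29 of the second. The genes that define each kind are not named as results in it. They stay among the genes tested, 12 in the first kind and 4 in the second. Among 2375 genes in Cd3 or NK gene cells, edgeR called 0, with 83 higher (3.49%) and 43 lower (1.81%) at an unadjusted p under 0.05, and DESeq2 called 0. Both late libraries lay above both early ones for 477 genes (20.1%) and below for 426 (17.9%), 903 (38%) in all. The nearest libraries were at least 2-fold apart for 39 (1.64%) and 18 (0.758%), and the counting intervals were apart for 15 (0.632%) and 8 (0.337%). Without P45, edgeR called 64 genes higher and 57 lower in these cells, or 60 and 54 without the defining genes, and without P50 it called 10 and 6. Leaving out P63 or P80 gave 0 calls. Among 1866 genes in class II high cells edgeR called 0, with 101 higher (5.41%) and 47 lower (2.52%) at an unadjusted p under 0.05. DESeq2 called 4 there, Cap1 and Slc23a1 higher and Cxcl2 and Ifi27l2a lower. Sides did not overlap for 450 higher (24.1%) and 371 lower genes (19.9%), 821 (44%) in all. They were at least 2-fold apart for 36 (1.93%) and 16 (0.857%), with counting intervals apart for 15 (0.804%) and 9 (0.482%). Without P45 edgeR called 27 higher and 11 lower in class II high cells, and without P50 2 and 4.

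The leading genes were chosen in all Ptprc-positive cells, which include both kinds. Of the 15 higher, 13 lay on the same side in Cd3 or NK gene cells and 2 overlapped, and in class II high cells 8 lay on the same side, 1 opposite and 6 overlapped. In Cd3 or NK gene cells Icos stood at 258, 147, 472 and 702, Rora at 169, 98.6, 413 and 397 and Cd69 at 242, 228, 494 and 549. The early levels of Icos and Rora were higher at P45 than at P50, and both late libraries lay above P45. Gata3 and Il7r overlapped between sides in these cells. Il21r stood at 67.3, 37.2, 184 and 153 and Ikzf3 at 81.8, 30.7, 162 and 214. Among the 10 with the smallest p were also the sterol genes Fdps (21.8, 32.9, 155 and 91.6) and Insig1 (32.7, 35.1, 177 and 91.6), Kdm6b (113, 94.2, 354 and 305) and Gzmb (49.1, 59.2, 192 and 183). Fdps and Insig1 had early means under 50 CPM in these cells and passed the filter only through the late libraries. Gclm stood at 49.1, 54.8, 177 and 305. Of 9 cytotoxic granule genes tested in these cells, 1 was higher, 5 lower and 3 overlapped, against 20.1% higher and 17.9% lower over all genes. The summed list stood at 8776, 8945, 4793 and 3723. Gzmc stood at 4487, 2156, 996 and 0. At P50 1 cell held 359 of its 984 UMIs and at P63 1 cell held 66 of 135.

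Lower in Cd3 or NK gene cells of both late libraries were the division genes Hist1h2ap (362, 223, 88.5 and 30.5) and Stmn1 (282, 1126, 184 and 30.5), and 5 of 12 cell cycle genes in all. The regulator of G-protein signalling Rgs2 stood at 1106, 3028, 649 and 702. S100a4, a calcium-binding protein of migrating cells, stood at 2523, 3646, 1740.4 and 1221, and Ctsc, cathepsin C, which activates granzymes, at 158, 195, 66.4 and 30.5. Ctsc had a late mean under 50 CPM in these cells and passed the filter only through the early libraries. Of 9 dendritic epidermal T cell markers tested here that do not define these cells, 5 were lower and 2 higher. Over all genes in these cells 17.9% were lower and 20.1% higher. At P80 1 UMI in these cells is worth 30.5 CPM, so levels of 30.5 rest on 1 UMI.

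Of the 15 leading lower genes, 15 lay on the same side in class II high cells, and 12 in Cd3 or NK gene cells, where 3 overlapped. In class II high cells Cxcl2 stood at 697, 1178, 200.4 and 174 (fold -2.29 ± 0.41, edgeR adjusted p 0.41), and its UMIs were in 29.9% and 30.5% of these cells in early libraries against 12.1% and 13.8% in late ones. Tsc22d3 stood at 548, 472, 162 and 174, Ifi27l2a at 554, 1513, 200.4 and 323 and Ccl17 at 163, 488, 9.54 and 24.8. Ccl17 passed the filter here only through the early libraries. Fth1 stood at 4300.0, 6602, 2577 and 2382. C1qb stood at 368, 714, 305 and 174, but C1qa and C1qc overlapped here, as did Ctss. Of class II presentation genes that do not define these cells 2 of 5 were lower here, of complement genes 2 of 6, of cathepsins and cystatins 3 of 9 and of TREM2 genes 3 of 11, with medians of -0.26, -0.30, -0.31 and -0.24. Macrophage markers had 4 of 14 lower and 2 higher (median -0.20). Over all 1866 genes in these cells 19.9% were lower and 24.1% higher. With so few members, these lists are not set apart from those shares. Oxidative phosphorylation genes had 29 of 63 lower and 3 higher (median -0.35), proteasome genes 11 of 24 lower and 2 higher (median -0.27) and cell cycle genes 3 of 7 lower and none higher. C1qb UMIs were in 25.9%, 21.3%, 20.7% and 17.2% of class II high cells, and in 19.8%, 10.8%, 8.12% and 7.58% of all Ptprc-positive cells. Thinned to 1000 UMIs, the shares in class II high cells were 15.3%, 19.1%, 15.8% and 10.5%, and the sides overlapped.

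Higher in class II high cells of both late libraries were Actb (10890.0, 13281, 24003 and 20373), Kdm6b (241, 242, 496 and 695), the endocytosis adaptor Picalm (169.9, 191, 419.9 and 422) and Ccr2 (237, 135, 419.9 and 323). Pim1 stood at 766, 634, 1174 and 1836 in these cells, and at 338, 243, 701 and 519 in Cd3 or NK gene cells. Immediate early genes had 14 of 27 members higher and 2 lower in class II high cells and 7 of 27 higher and 1 lower in Cd3 or NK gene cells. The shares higher over all genes were 24.1% in class II high cells and 20.1% in Cd3 or NK gene cells. Malat1 stood at 27999, 24827, 41584 and 54046. The 18 keratinocyte markers, Krt5 and Krt14 included, summed to 524, 199.6, 659 and 2159 in class II high cells and to 1211, 651, 929 and 1648 in Cd3 or NK gene cells, where the sides overlapped.

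Whether the difference between late and early differed between the 2 kinds of cell was tested in 1 edgeR fit with the library as a block, chosen after seeing the data. Of 2161 genes 0 passed an adjusted p of 0.05, 54 had an unadjusted p under 0.05 and the smallest adjusted p was 0.977.

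**Figure D5:**
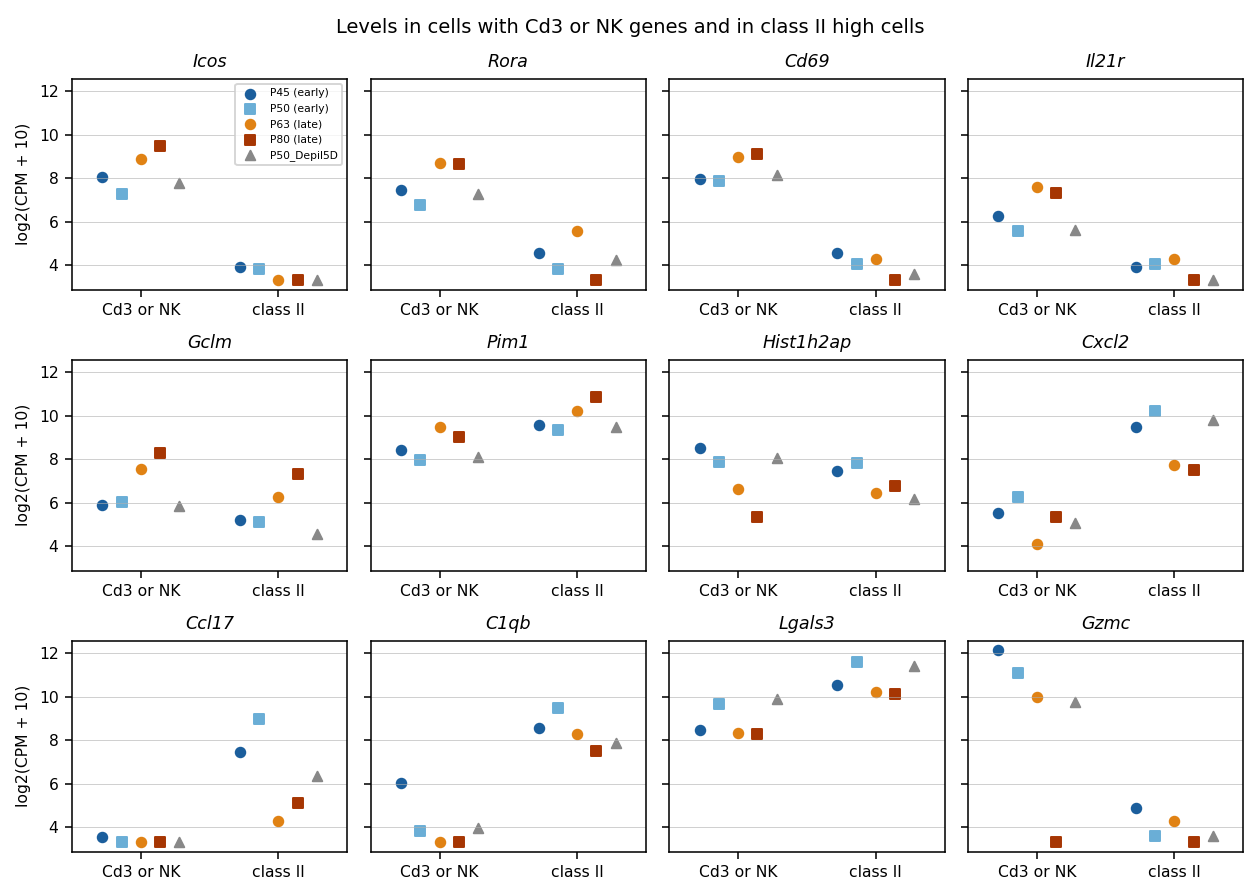
Levels of 12 genes in Cd3 or NK gene cells (left of each panel) and class II high cells (right), as log2 of CPM plus 10, 1 point per library in order of age and then P50_Depil5D. Icos, Rora, Cd69 and Il21r are lower in class II high cells than in Cd3 or NK gene cells of every library, and Ccl17 and C1qb the other way round; Gclm and Pim1 are higher in P63 and P80 in both.

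The depilated library, which the choice of genes did not use, was placed by the midpoint between the nearest early and nearest late libraries. It lay on the early side of that midpoint for 359 of the 462 higher genes and 242 of the 376 lower ones. It was on that early side for all 27 higher genes at least 2-fold apart and for 3 of the 6 such lower genes. The genes were chosen by the values of the other 4 libraries. Of the 462 higher genes, 161 passed the filter only through the late libraries, and of the 376 lower ones 54 only through the early libraries. Higher genes so chosen can fall nearer the early level in any further library, so these counts are description only. Icos stood at 129 there, Rora at 102, Cd69 at 155 and Gclm at 33.2, the last inside the early range of 29.2 to 40.4. Among lower genes, C1qb stood at 112 and Ccl17 at 29.5 in the depilated library, below both early libraries, and Lgals3 at 1705 lay between them. P50_Depil5D is also close to P50 in Gm-number share, at 0.640%, and shared barcodes, at 12.1%. Depilation and these library properties cannot be told apart.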

How the data were processed

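Per the labels, live CD45+ dermal cells were captured by 10x Genomics 3' chemistry. The authors deposited UMI counts per gene and barcode for 27998 genes, unnormalized. The submitters' processing notes name mm10 and Seurat, with no counting tool or annotation stated in the sources used here. Gene positions and lengths came from GENCODE vM21 (mm10), which held 27722 of the 27998 identifiers.

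Counts were summed per library over the 1827 cells and expressed per 1000000 of all their UMIs (CPM). Genes named Rps, Rpl, mt- or Gm-number were left out, as were genes with a mean under 50 CPM. The test was edgeR 4.0.16's quasi-likelihood fit (R 4.3.3) without TMM, with Benjamini-Hochberg adjustment over all genes tested, and DESeq2 1.42.0 was an alternative. Shares were compared by exact permutation (scipy 1.17.1), and shares of cells with a UMI also after thinning to 1000 UMIs. No doublet caller was run. An allowance for a count of 0 is 3 UMIs, and covers counting error only, as do the 95% intervals.

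Named genes were the 15 with the smallest p in each direction among those whose sides did not overlap, up to 4 such members of each of 59 lists, and 10 per direction within each kind of cell. Members and lists were chosen with earlier results of these data known. The table held 846 of 850 list symbols, and 0 other per-sample columns were left aside.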

Additional observations from a re-analysis of the deposited data

How the results depend on the processing

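No paired analysis was possible because the library numbers within a side follow deposition order and pair nothing. Depth limits the late side most: 1 UMI is 11.5 CPM at P80. DESeq2 called 5 genes higher and 1 lower in Ptprc-positive cells and 2 and 2 in class II high cells. With no filter on low values, more genes were tested: edgeR called 49 higher and 19 lower of 14482 in Ptprc-positive cells, 15 and 11 of 12672 in Cd3 or NK gene cells, and 12 and 6 of 12886 in class II high cells. Of the 68 in Ptprc-positive cells, 34 had a mean under 50 CPM. Sides then did not overlap for 2274 higher and 2752 lower genes, 1461 and 2737, and 1596 and 2920, in the same order of cells. With a mean of at least 200 CPM, fewer genes were tested and these were 67 and 121 of 476, 81 and 130 of 540, and 76 and 118 of 434. Age as a number called 1 gene lower in Ptprc-positive cells and 1 in class II high cells, and thinning to 1000 UMIs called 2 higher in class II high cells; the cause was not tested.

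Leaving out each library in turn gave 0 to 64 called higher and 0 to 57 lower in Cd3 or NK gene cells, and 0 to 27 and 0 to 11 in class II high cells. With 1 library on a side, it is assumed to vary like the others. Genes whose sides did not overlap then numbered 703 to 851 higher and 517 to 799 lower in Ptprc-positive cells, 775 to 1022 and 554 to 867 in Cd3 or NK gene cells, and 631 to 862 and 465 to 707 in class II high cells, since fewer libraries have to be ordered. The log2 fold of Il7r (-0.081) and Cfp (0.058) turned sign with shared barcodes kept, and that of Socs3 (-0.041) with Krt5 and Krt14 at 0 or 1 UMI. With shared barcodes kept, 12 of the 15 leading higher genes were tested and all 12 lay on the same side, as did 15 of the 15 lower ones. Over all genes whose sides did not overlap, 285 of 401 higher and 238 of 374 lower ones then stayed on their side, and after thinning to 1000 UMIs 280 of 431 (7 opposite) and 224 of 361.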
